A study of Rattus norvegicus with 60 samples.

Results

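The cytosolic ribosomal protein genes were examined in 3 brain regions of rats given LiCl, lamotrigine or the matched vehicles. A gene was a member when a probe set carried it as its only symbol and that symbol had the form of a large subunit (Rpl) or small subunit (Rps) protein gene, or was Rplp0, Rplp1, Rplp2 or Rpsa. Ribosomal S6 kinases and genes of the mitochondrial ribosome were left out by the rule. 48 of 14217 genes with a single symbol met it, 33 of the large and 15 of the small subunit, on 55 probe sets. For each of the 6 genes with several probe sets, the brightest over all 60 arrays was used. Rplp1 and Rplp2 had no probe set of their own, and 36 further probe sets that carried a ribosomal protein symbol together with other symbols were not members.

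All animals were Sprague-Dawley (SD) rats, and their sex and age are not given in the sources used here. LiCl was fed at 0.2% in chow and compared with rats on vehicle chow, and lamotrigine was injected under the skin once daily at 30 mg/kg and compared with rats given vehicle injections; every rat was studied at day 21. Hippocampus, cortex and striatum were each profiled on 5 arrays for each of the 4 treatments, 60 arrays from 24 animals in all. 16 animals gave all 3 regions, 4 gave 2 regions and 4 gave a single region, and all 10 animals of the lamotrigine and injection vehicle groups were among the 16. The injection vehicle and chow vehicle groups differed in route and in feed, and any batch that went with either cannot be told apart from them. The tissue field of the labels says mouse, whereas the organism, strain and title fields say rat. The labels also call the drug delivery constant for every sample, whereas the study's design text gives chow for LiCl and 1 injection a day for lamotrigine and its vehicle; the design text is followed here.

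The ribosome is built from ribosomal RNA and a fixed set of proteins, and its proteins are needed in nearly equal numbers. Many of the messages for these proteins begin with a C followed by a run of pyrimidines, the 5′ terminal oligopyrimidine (TOP) motif, through which the mTORC1 kinase pathway adjusts their translation. Neurons and glia both carry large amounts of these messages. Lithium, a mood stabilizer, inhibits the kinase GSK3, and lamotrigine, an anticonvulsant used in bipolar disorder, blocks voltage-gated sodium channels.

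RefSeq promoters of the GRCr8 rat assembly around each annotated start were matched to 43 of the 48 members, 41 by gene ID and 2 by symbol. A run of at least 8 C and T that reached within 10 bases of the annotated start stood in 27 of the 43 (62.8%), against 13.5% of all 33469 promoters. A C at the annotated first base followed by at least 4 of C or T stood in 12 of the 43 (27.9%), against 2.63% of all promoters. The letters CCGGAAG, on either strand, stood in 23.3% of members and 8.75% of all promoters. The windows below belong to 9 members whose values are given by array or range in the results, from 30 bases before the annotated start to its first 20 bases, in the direction of transcription; the annotated first base is letter 31 and the capitals mark the longest run of C and T that reaches within 10 bases of it. Rpl22 lay at chr5:168117931-168117980 (plus strand), Rpl28 at chr1:78083513-78083562 (minus strand), Rpsa at chr8:128728849-128728898 (plus strand), Rps3a at chr2:173827023-173827072 (minus strand), Rps6 at chr5:106420521-106420570 (minus strand), Rpl3l at chr10:14258416-14258465 (plus strand), Rpl7l1 at chr9:21695688-21695737 (plus strand), Rps4y2 at chr4:183000883-183000932 (plus strand) and Rps27l at chr8:76443628-76443677 (plus strand).
Rpl22: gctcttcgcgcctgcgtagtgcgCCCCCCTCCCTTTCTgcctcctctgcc
Rpl28: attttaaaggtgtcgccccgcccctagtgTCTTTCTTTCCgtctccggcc
Rpsa: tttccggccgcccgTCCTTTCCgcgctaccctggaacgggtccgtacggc
Rps3a: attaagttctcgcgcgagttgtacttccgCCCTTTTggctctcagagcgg
Rps6: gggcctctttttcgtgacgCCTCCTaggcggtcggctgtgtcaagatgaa
Rpl3l: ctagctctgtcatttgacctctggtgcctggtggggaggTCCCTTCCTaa
Rpl7l1: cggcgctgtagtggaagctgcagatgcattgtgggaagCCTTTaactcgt
Rps4y2: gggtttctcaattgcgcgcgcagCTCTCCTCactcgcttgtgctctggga
Rps27l: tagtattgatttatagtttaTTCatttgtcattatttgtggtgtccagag
Rpl22, Rpl28 and Rps3a have a C at the annotated start followed by pyrimidines, and the other 6 do not have this form. In the window of Rps6 a longer run of C and T lies further upstream, outside the limit of 10 bases, and is not marked. In the window of Rps27l no run of C and T is longer than 3 bases. Runs of that length lie on both sides of the start, and the capitals mark the first that reaches within 10 bases. The windows describe letters around an annotated start, and no start was measured in these rats.

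Most members gave bright signals. 38 of the 48 had a mean log2 intensity of 10 or more over the 60 arrays, a level that 7.702% of all probe sets reached, and the median member lay at 12.24 against 6.616 for all probe sets. The brightest were Rps29 (13.93), Rpl37a (13.42) and Rpl19 (13.33). The dimmest were Rpl39l1 (3.905), Rpl30 (3.968) and Rpl3l (4.25). Brightness depends on the probes as well as on the message, so these levels do not order the genes by abundance. The 10 members under 10 held 6 paralogs of core proteins: Rpl7l1 (9.165), Rpl26l1 (6.079), Rps27l (5.503), Rps4y2 (5.393), Rpl3l and Rpl39l1. They also held the core genes Rpl39 (7.96), Rps13 (5.481), Rpl28 (5.173) and Rpl30. The median standard deviation between arrays of a group was 0.0812 log2 units for the 38 bright members, 0.1536 for the 10 dim ones and 0.1459 for all probe sets. A change of a given size was therefore easier to detect among bright members.

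**Figure D1:**
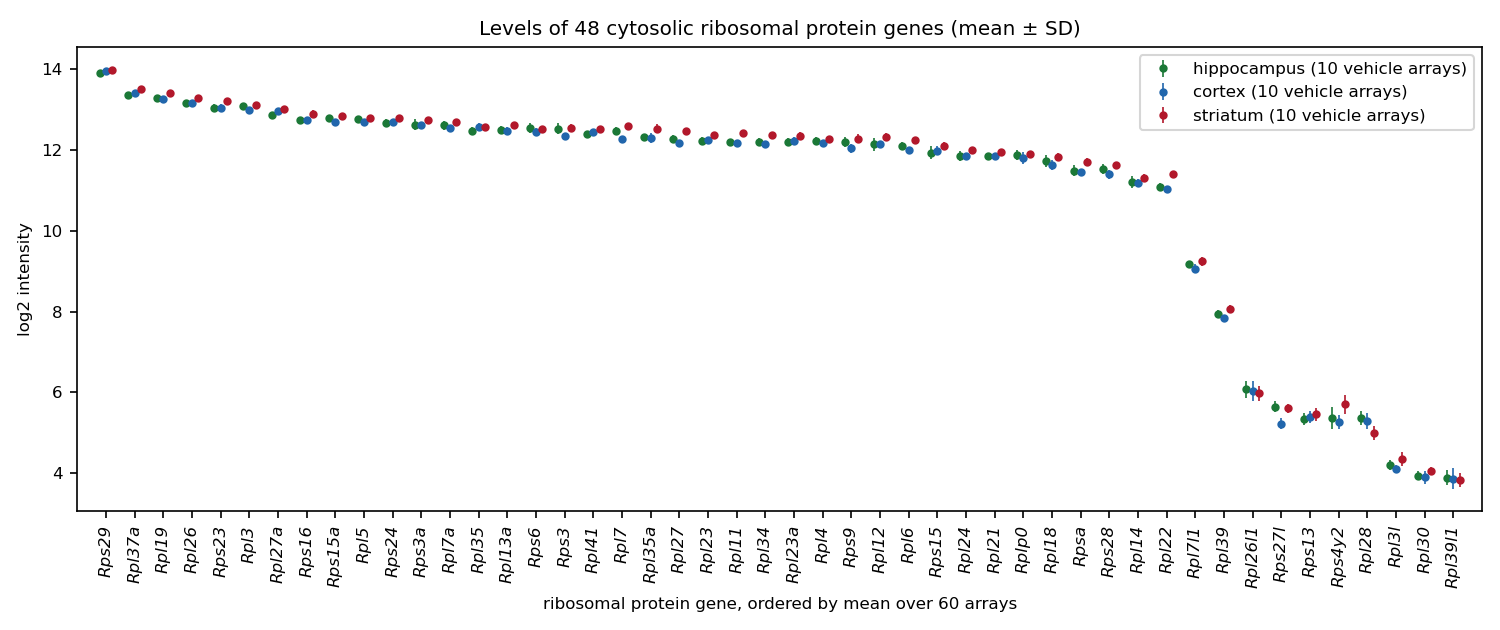
Log2 intensity (vertical axis) of each of the 48 ribosomal protein genes (horizontal axis, ordered by mean over 60 arrays) in the 10 vehicle arrays of each region; points are means and bars 1 SD. 38 genes lie at 10 or above and 10 lie below it, down to 3.905 for Rpl39l1.

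The bright members rose and fell together from array to array. After each gene's group mean was taken away, the correlation between 2 bright members over the 20 arrays of a region had a median of 0.718 in hippocampus, 0.6807 in cortex and 0.7589 in striatum, over 703 pairs. Over all 1694 genes with a level of 10 or more the medians were 0.0644, 0.04985 and 0.06403. Among the 10 dim members they were 0.1165, 0.03429 and 0.1771. These are descriptions: all pairs share the same arrays and the same normalization. The mean level of the 38 bright members could therefore be followed as a single value per array. In cortex it lay between 12.24 and 12.49, in hippocampus between 12.26 and 12.53 and in striatum between 12.43 and 12.66. Within the 5 lamotrigine cortex arrays it was 12.28, 12.27, 12.49, 12.31 and 12.25. The third of these arrays was high alone, and it was also the highest of the 5 in the list of meninges and fibroblast genes (8 measured), at a mean level of 7.84 against 5.78 to 6.14; the part of those cells in its ribosomal protein level was not tested.

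**Figure D2:**
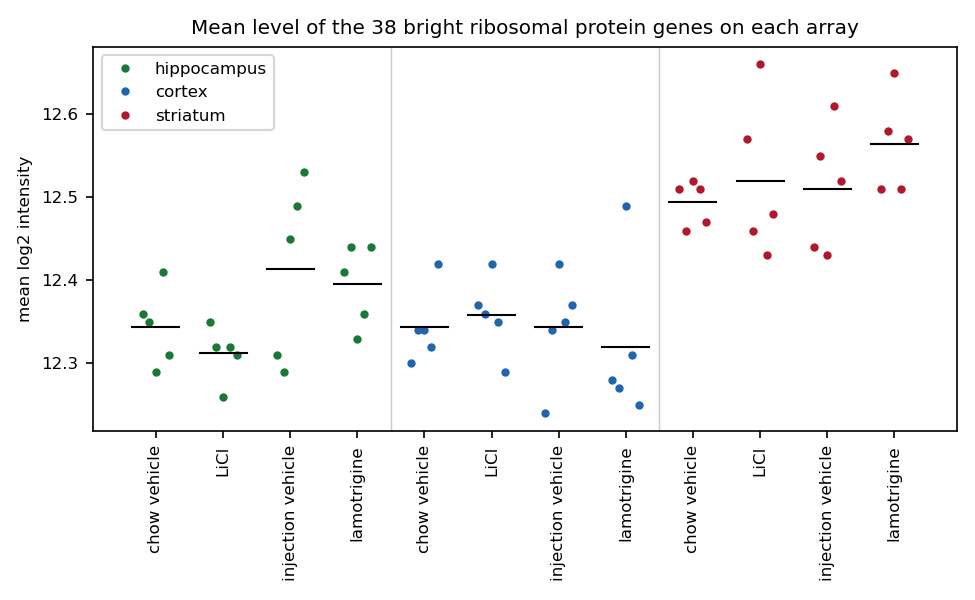
Mean log2 intensity of the 38 bright ribosomal protein genes (vertical axis) on each of the 60 arrays, in 12 groups (horizontal axis); points are arrays and lines are means of 5. The 10 vehicle arrays of striatum lie between 12.43 and 12.61, those of cortex between 12.24 and 12.42.

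The first comparison asked whether the regions differed in vehicle animals. Each region was represented by the mean of its chow vehicle and injection vehicle groups, 10 arrays a region, with the animal as a random block. Ribosomal protein genes were higher in striatum than in cortex. 40 of 48 members were called higher and 1 lower at an adjusted p under 0.05 (limma, Benjamini-Hochberg over 31042 probe sets), whereas 31.2% of all probe sets were called higher and 24.7% lower. The median difference was 0.147 log2 units over members and 0.0397 over all probe sets. 27 of the 33 large subunit genes and 13 of the 15 small subunit genes were called higher. The sizes were small: 7 of the 41 called members reached 1.2-fold. Of the 38 bright members 34 were called higher, against 595 of all 1694 genes at level 10 or more, members included. Beyond that limit the sets were not matched in brightness, and 30 members lay at 12 or more. The share of all probe sets called at 1.2-fold is not given here.

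Rpl22, a large subunit protein that binds small viral and cellular RNAs and has a paralog, Rpl22l1, differed most clearly. In the 10 vehicle arrays of striatum its log2 intensity ranged from 11.29 to 11.52 with a median of 11.41. In cortex it ranged from 10.85 to 11.15 with a median of 11.02, and in hippocampus from 10.95 to 11.25 with a median of 11.05. Striatum lay above both other regions without overlap. The difference was 0.37 ± 0.04 (SE) from cortex (adjusted p = 1.8e-13, 1.30-fold) and 0.33 ± 0.04 from hippocampus (adjusted p = 1.99e-11), and that between hippocampus and cortex was not called. In all 10 animals with the 3 regions from the injection arms, Rpl22 was higher in striatum than in both other regions.

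Rpl7, a large subunit protein, was ordered striatum, hippocampus, cortex on its brighter probe set. Its medians were 12.59, 12.48 and 12.28, and each neighbouring pair was called different: 0.12 ± 0.03 between striatum and hippocampus (adjusted p = 0.00115) and 0.20 ± 0.03 between hippocampus and cortex (adjusted p = 2.76e-07). All 10 hippocampus arrays lay above all 10 cortex arrays. On its dim second probe set (level 6.595) striatum and hippocampus were not called different, at -0.06 ± 0.09 (limma, adjusted p = 0.573). There the difference between hippocampus and cortex was 0.35 ± 0.09 (adjusted p = 0.000679).

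Rpsa, a small subunit protein also known as the laminin receptor precursor, had 3 probe sets, and each was called higher in striatum than in cortex. On the brightest, striatum ranged from 11.59 to 11.91 and cortex from 11.30 to 11.53, a difference of 0.26 ± 0.05 (adjusted p = 1.2e-05). On the others the differences were 0.25 (adjusted p = 0.000111) and 0.28 (adjusted p = 3.51e-06). Of the 7 probe sets of members that were not the brightest, 6 were called higher in striatum than in cortex; the exception was the dim second probe set of Rps24 (adjusted p = 0.358). Rplp0, the base of the stalk that recruits elongation factors, was 0.10 ± 0.04 higher in striatum than in cortex (adjusted p = 0.0401), with overlapping ranges of 11.76 to 11.99 and 11.51 to 12.04. Rps29, the brightest member, was not called, with means of 13.99 and 13.95.

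The dim paralogs Rps4y2 and Rps27l had the largest fitted differences. Rps4y2, a paralog of the small subunit gene Rps4x, was 0.44 ± 0.09 higher in striatum than in cortex (adjusted p = 4.34e-05), but its striatum arrays spread from 5.23 to 5.95 and its cortex arrays from 4.89 to 5.47, so the ranges overlapped. Rps27l, a paralog of Rps27 known to be induced by p53, separated cortex from the other regions: its medians were 5.24 in cortex, 5.64 in hippocampus and 5.61 in striatum. It was 0.42 ± 0.07 higher in hippocampus than in cortex (adjusted p = 1.39e-06) with no overlap between arrays, and the difference between striatum and hippocampus was -0.04 ± 0.07. Rpl28 went the other way, on a dim probe set (level 5.173) for which a signal above background is not established. Its probe set was lower in striatum, at 4.66 to 5.18, than in cortex, at 4.99 to 5.57, a difference of -0.29 ± 0.07 (adjusted p = 0.000339), and lower than in hippocampus by a difference of -0.37 ± 0.07 (adjusted p = 1.73e-05). Among the 10 injection-arm animals Rpl28 was lower in striatum than in hippocampus in 10 and lower than in cortex in 7.

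Striatum also stood above hippocampus. 34 members were called higher and 1, Rpl28, lower, against 27.4% and 23.5% of all probe sets, and the median difference was 0.119 over members and 0.0359 over all probe sets. After Rps4y2 (0.34 ± 0.09, adjusted p = 0.00156) and Rpl22, the largest were Rpsa (0.23 ± 0.05, adjusted p = 0.000174) and Rpl11, a large subunit protein that binds Mdm2 (0.22 ± 0.03, adjusted p = 6.41e-09). Rps6 was not called, at -0.01 ± 0.03. Within the 10 injection-arm animals the median over members was above 0 in 8; in injection vehicle animals 3 and 5 it was -0.0296 and -0.0040, with 20 and 24 of the 48 members above 0.

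Hippocampus and cortex differed less. 12 members were called higher in hippocampus and 2 lower, shares close to the 21.3% and 21.1% of all probe sets called higher and lower, or below them, with a median of 0.038 over members and 0.0119 over all probe sets. After Rps27l and Rpl7, the largest were Rps3, a small subunit protein with a role in DNA repair (0.18 ± 0.04, adjusted p = 0.000138), and Rps9 (0.15 ± 0.04, adjusted p = 0.00116). The lower members were Rpl35 (-0.11 ± 0.03, adjusted p = 0.00919) and Rpl27a (-0.10 ± 0.03, adjusted p = 0.00282).

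The 36 probe sets that carried several symbols, which were not members, gave 22 higher and 0 lower between striatum and cortex, 23 higher and 1 lower between striatum and hippocampus, and 3 higher and 3 lower between hippocampus and cortex. They can share sequence with pseudogenes, and their signal cannot be assigned to 1 gene.

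**Figure D3:**
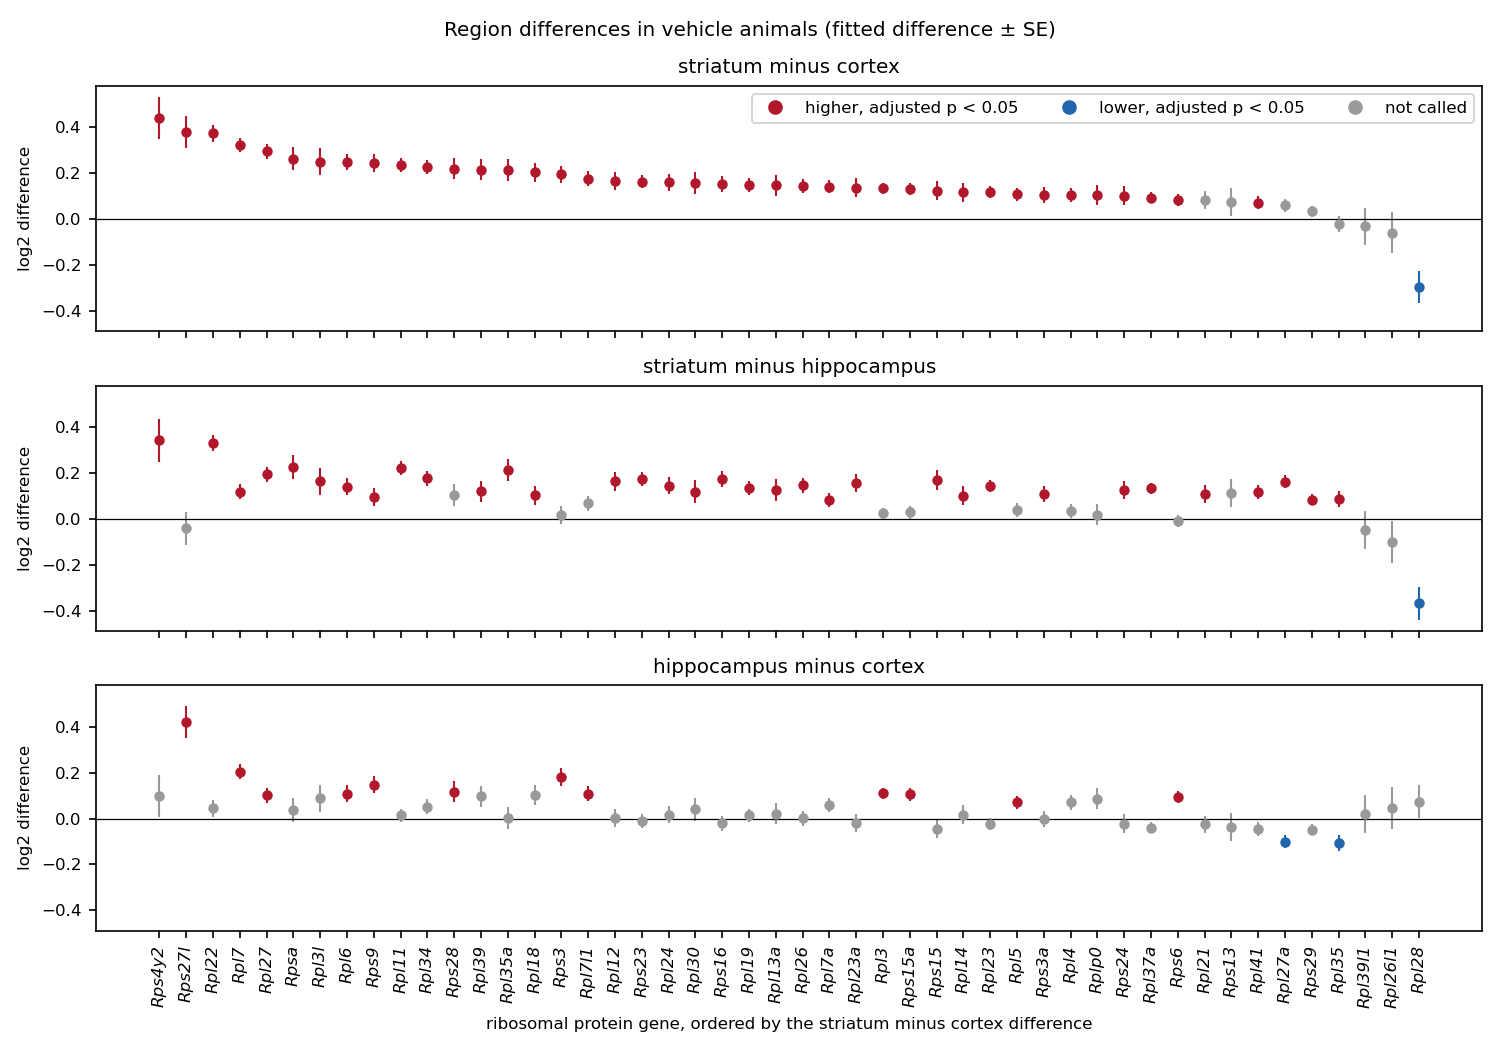
Fitted log2 difference between 2 regions in vehicle animals (vertical axis) for each of the 48 members (horizontal axis, ordered by striatum minus cortex); bars are 1 SE, red and blue mark members called higher and lower. Striatum is above 0 for 40 called members against cortex and 34 against hippocampus, with Rpl28 below 0 in both.

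The position of striatum above cortex was seen in each treatment. The median difference over members was 0.131 in chow vehicle, 0.1556 in injection vehicle, 0.1413 in LiCl and 0.2249 in lamotrigine animals, with 43 to 45 of the 48 members above 0. Over all probe sets the medians were 0.0379, 0.0379, -0.0294 and 0.0211 in the same order. Within the 10 injection-arm animals the median was above 0 in 10 of 10, from 0.0185 to 0.292. The difference between hippocampus and cortex did not keep its sign: its median was 0.078 in injection vehicle and 0.0532 in lamotrigine animals, 0.00481 in chow vehicle and -0.0494 in LiCl animals. Over all probe sets the medians there were -0.0023, 9.19e-05, 0.013 and -0.0326 in the same order, so the LiCl value was below 0 there too. With LiCl arrays alone, 3 members were called higher and 13 lower in hippocampus than in cortex, beside 20.3% and 21.4% of all probe sets. Bulk tissue does not tell apart a region with more cells rich in these messages from a region with more message per cell. The oligodendrocyte list (6 of 7 genes measured) moved with the striatal difference, from 11.80 to 12.49 in striatum and from 10.37 to 11.52 in cortex, and its part was not tested. The pan-neuronal list (6 genes) ran the other way, at 10.98 to 11.16 in striatum and 11.49 to 11.79 in cortex. The medium spiny neuron list (7 of 8 genes measured) checked the dissection, at 11.93 to 12.25 in striatum and 7.06 to 7.66 in cortex. With arrays rich in choroid plexus genes left out (a list mean of 6.5 or more, 6 of the vehicle arrays), 37 members were called higher and 1 lower in striatum than in cortex, beside 28.6% and 23.4% of all probe sets. In the same fit 23 members were higher and 1 lower in striatum than in hippocampus, beside 22% and 20.8%.

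The second comparison asked what the drugs did against their own vehicles. LiCl changed few ribosomal protein genes. In hippocampus 0 of 48 members were called with limma (0.235% of all probe sets were), 1 rose and 5 fell at an unadjusted p under 0.05, and the median change was -0.0332. The smallest p there belonged to Rps4y2 (-0.38 ± 0.14, adjusted p = 0.215), Rps13 (0.24 ± 0.10, adjusted p = 0.239) and Rpl30 (-0.16 ± 0.07, adjusted p = 0.249), all dim. In striatum 0 members were called (0% of all probe sets), with 2 members at an unadjusted p under 0.05 and a median of 0.0106. The smallest p there belonged to Rps13 (0.33 ± 0.10, adjusted p = 0.242), whose 5 LiCl arrays lay above the 5 vehicle arrays, Rps16 (0.12, adjusted p = 0.397) and Rps4y2 (-0.30 ± 0.17, adjusted p = 0.472). The shares of all probe sets at an unadjusted p under 0.05 in hippocampus and striatum are not given here. In cortex 2 of 48 members were called, whereas 13.4% of all probe sets were. The median change was 0.0317 over members and -0.00115 over all probe sets. None of the 38 bright members was called in cortex, where 15 of the 1694 genes of like brightness were called higher and 254 lower.

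Both called members were dim, below the median of all probe sets (6.616), and whether their probe sets exceed background is unknown. Rpl28, of the large subunit, had log2 intensities of 5.10, 5.14, 4.80, 4.91 and 5.26 in the LiCl cortex arrays and 5.44, 5.47, 5.30, 5.44 and 5.57 in the chow vehicle arrays. All 5 LiCl arrays lay below all 5 vehicle arrays, a change of -0.40 ± 0.09 (adjusted p = 0.0109). Rpl3l, the paralog of Rpl3 best known from heart and skeletal muscle, read 4.49, 4.48, 4.41, 4.47 and 4.16 with LiCl and 4.18, 4.09, 4.03, 4.18 and 4.14 with vehicle. 4 of the 5 LiCl arrays lay above every vehicle array, and the change was 0.28 ± 0.08 (adjusted p = 0.031). Rps27l followed at 0.31 ± 0.11 (adjusted p = 0.0575). The spread of the arrays moved with the groups: the interquartile range of log2 intensity was 3.289 to 3.445 with LiCl and 3.557 to 3.613 with vehicle. The spread did not overlap between the groups, so as a covariate it nearly stood for the group; 0 members were then called, with Rpl28 at -0.34 (adjusted p = 0.5) and Rpl3l at 0.34 (adjusted p = 0.451). The choroid plexus list (8 of 9 genes measured) was at 5.59 to 6.08 with LiCl and 5.25 to 5.46 with vehicle, and the neuronal list at 11.36 to 11.47 and 11.49 to 11.65; the part of these cells was not tested. Without any of 6 arrays, LiCl replicates 1 to 4 and chow vehicle replicates 2 and 3, Rpl3l lost its call and 1 member remained called.

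The effect of LiCl on 2 members differed between the regions in an F test over the 3 regions: Rps27l (adjusted p = 0.026) and Rps4y2 (adjusted p = 0.0346), while 17.2% of all probe sets were called. Rps27l was 0.31 ± 0.11 higher with LiCl in cortex, at -0.09 ± 0.09 in hippocampus and at -0.14 ± 0.11 in striatum. Its cortex values were 5.72, 5.46, 5.41, 5.41 and 5.52 with LiCl and 5.45, 5.04, 5.25, 5.23 and 4.98 with vehicle. Those groups overlapped through the first vehicle array alone. Rps4y2 was at -0.38 ± 0.14 in hippocampus, 0.21 ± 0.10 in cortex and -0.30 ± 0.17 in striatum, none of which was called by itself. Its hippocampus values were 4.86, 4.97, 5.33, 5.08 and 5.00 with LiCl and 5.33, 5.45, 5.20, 5.56 and 5.58 with vehicle. Without cortex LiCl replicate 1, cortex chow vehicle replicate 2 or cortex chow vehicle replicate 5, neither member was called, nor was either with quantile normalization (adjusted p = 0.235 and 0.212). Without hippocampus LiCl replicate 1, cortex LiCl replicate 4 or 5, or cortex chow vehicle replicate 3, Rps27l was called and Rps4y2 was not.

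Lamotrigine gave no called member in any region. The share of all probe sets called was 0.00322% in hippocampus, 0% in cortex and 0% in striatum. At an unadjusted p under 0.05, limma gave 5 members in hippocampus, all lower, 1 in cortex and 2 in striatum, both higher. The shares of all probe sets at that limit are not given for these or the later counts in this paragraph. The smallest p in hippocampus belonged to Rps15a, a small subunit protein, at -0.14 ± 0.04 (adjusted p = 0.258), to Rps29 at -0.11 ± 0.04 (adjusted p = 0.299) and to Rpl23a at -0.13 (adjusted p = 0.456). The 5 lamotrigine values of Rps29, 13.82, 13.78, 13.73, 13.81 and 13.79, lay below the 5 vehicle values, 13.83, 13.83, 13.92, 13.97 and 13.96. In striatum 44 of the 48 members had a value above 0, with a median of 0.0491 against 0.0038 over all probe sets, and because bright members moved together over arrays these 44 are not separate observations. The largest there was Rps27l at 0.29 ± 0.11 (adjusted p = 0.997), and Rpl6 and Rpl27 followed by p at 0.10 and 0.09. In cortex the smallest p were those of Rpl6, at 0.12 ± 0.05 (adjusted p = 0.817), Rpl26l1 at 0.27 (adjusted p = 0.861) and Rpl3l at 0.15 (adjusted p = 0.866). The effect of lamotrigine differed between regions for 0 members (0% of all probe sets), with 2 at an unadjusted p under 0.05. The LiCl effect minus the lamotrigine effect, tested directly, was called for 0 members in each region; it was called for 0% of all probe sets in hippocampus, 0.0129% in cortex and 0% in striatum, and 1, 2 and 2 members reached an unadjusted p under 0.05.

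**Figure D4:**
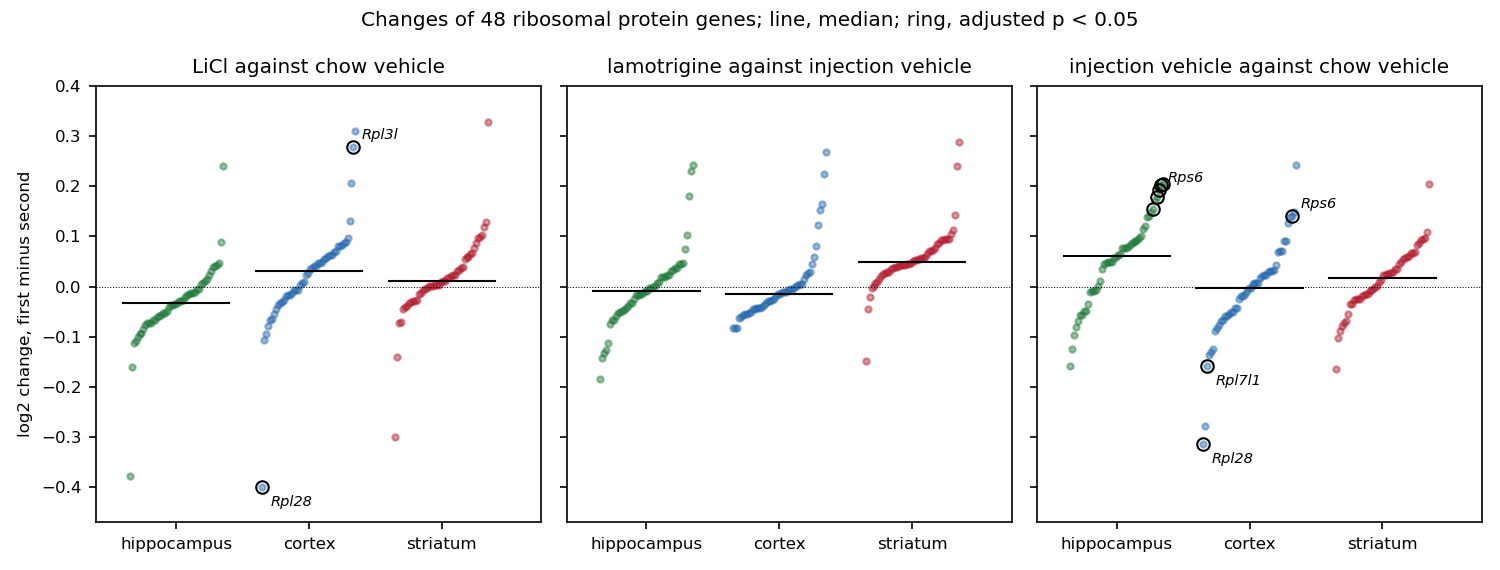
Log2 change (vertical axis, first group minus second) of the 48 members in 3 comparisons and 3 regions (horizontal axis); each point is a gene, sorted by size, the line is their median and rings mark an adjusted p under 0.05. Rings appear for 2 members under LiCl in cortex, for 5 in hippocampus and 3 in cortex between the vehicles, and for none under lamotrigine.

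The third comparison set the 2 vehicles against each other. The injection vehicle group differed from the chow vehicle group at 18.5% of all probe sets in hippocampus, 18.9% in cortex and 6.83% in striatum. Among members, 5 were called higher in hippocampus, 1 higher and 2 lower in cortex, and 0 in striatum, where limma gave 2 at an unadjusted p under 0.05. The called shares were below those over all probe sets. The share of all probe sets at an unadjusted p under 0.05 in striatum is not given here.

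Rps6, the small subunit protein that S6 kinase phosphorylates, was called in hippocampus and cortex. In hippocampus it read 12.54, 12.55, 12.67, 12.71 and 12.72 after vehicle injections and 12.44, 12.44, 12.38, 12.53 and 12.44 on vehicle chow. In cortex it read 12.49, 12.50, 12.60, 12.53 and 12.49 against 12.33, 12.42, 12.35, 12.37 and 12.42. The groups did not overlap in either region, and the differences were 0.19 ± 0.04 (adjusted p = 0.00145) and 0.14 ± 0.04 (adjusted p = 0.014). The cortex call was lost with arrays centred on their medians, without the intensity trend or at 1.2-fold. Over all settings the highest adjusted p in cortex (limma) was 0.0627. In striatum the difference was 0.08 ± 0.05 (adjusted p = 0.325) with overlapping groups. Rps6 was not called under LiCl or lamotrigine in any region. In hippocampus its LiCl values were 12.42, 12.46, 12.34, 12.41 and 12.41, which overlapped the chow vehicle, and its lamotrigine values were 12.57, 12.63, 12.60, 12.58 and 12.60, within the range of the injection vehicle.

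The other 4 members called higher in hippocampus were Rps3a (0.21 ± 0.05, adjusted p = 0.00333), Rps15 (0.20 ± 0.06, adjusted p = 0.0314), Rps9 (0.15 ± 0.05, adjusted p = 0.0369) and Rpl14 (0.18 ± 0.06, adjusted p = 0.0493). Rps3a read 12.61, 12.62, 12.77, 12.78 and 12.84 after injections and 12.54, 12.50, 12.45, 12.61 and 12.49 on chow, with no overlap before rounding. For Rps15, Rps9 and Rpl14 the groups overlapped. Within the injection vehicle group the mean of the 38 bright members was 12.31 and 12.29 on replicates 1 and 2 and 12.45, 12.49 and 12.53 on replicates 3 to 5. Leaving out replicate 1 or 2 gave 10 and 13 called members, leaving out chow vehicle replicate 4 gave 8, and leaving out injection vehicle replicate 3, 4 or 5 or chow vehicle replicate 1, 3 or 5 gave 2. The shares of all probe sets called in these fits are not given here, so the counts cannot be set against them. The array spread was 3.553 to 3.64 after injections and 3.43 to 3.562 on chow, nearly apart, and with it as a covariate 0 members were called, with Rps6 at 0.12 (adjusted p = 0.397) and Rps3a at 0.11 (adjusted p = 0.561). The oligodendrocyte list was at 11.49 to 11.82 and 11.23 to 11.60, and the choroid plexus list at 5.62 to 8.03 and 5.65 to 6.95. The microglia list (8 genes, 3 called higher) was at 8.02 to 8.49 and 7.96 to 8.19, and the endothelium list (5 genes measured, 2 called lower) at 7.23 to 7.88 and 7.67 to 7.91. The part of these cells was not tested. With arrays rich in choroid plexus genes left out, 2 members, Rps6 and Rps3a, were called, at 0.21 and 0.22.

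In cortex the 2 members called lower after injections were Rpl28 and Rpl7l1, a nucleolar paralog of Rpl7. Rpl28 read 5.18, 5.05, 4.99, 5.10 and 5.32 after injections, against the chow vehicle values given above, a difference of -0.31 ± 0.09 (adjusted p = 0.0212) with groups that overlapped by a single array on each side. LiCl and injection vehicle cortex were thus both low on this dim Rpl28 probe set against the same 5 chow vehicle arrays, which the 2 comparisons share. Rpl7l1 read 9.01, 8.98, 9.07, 8.92 and 8.94 against 9.14, 9.16, 9.12, 9.04 and 9.26, a difference of -0.16 ± 0.05 (adjusted p = 0.0212), and these groups overlapped too. Its second probe set, of nearly the same brightness at 9.133, showed -0.01 (adjusted p = 0.944), so the probe sets disagreed. In striatum the first probe set of Rpl7l1 was at -0.16 ± 0.05 (adjusted p = 0.0571), and the next by p were Rpl7a at 0.09 (adjusted p = 0.219) and Rpl3l at 0.21 (adjusted p = 0.268). In hippocampus the dim second probe set of Rps24 was higher after injections by 0.43 (adjusted p = 0.0194), while its bright probe set was at 0.09 (adjusted p = 0.225).

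**Figure D5:**
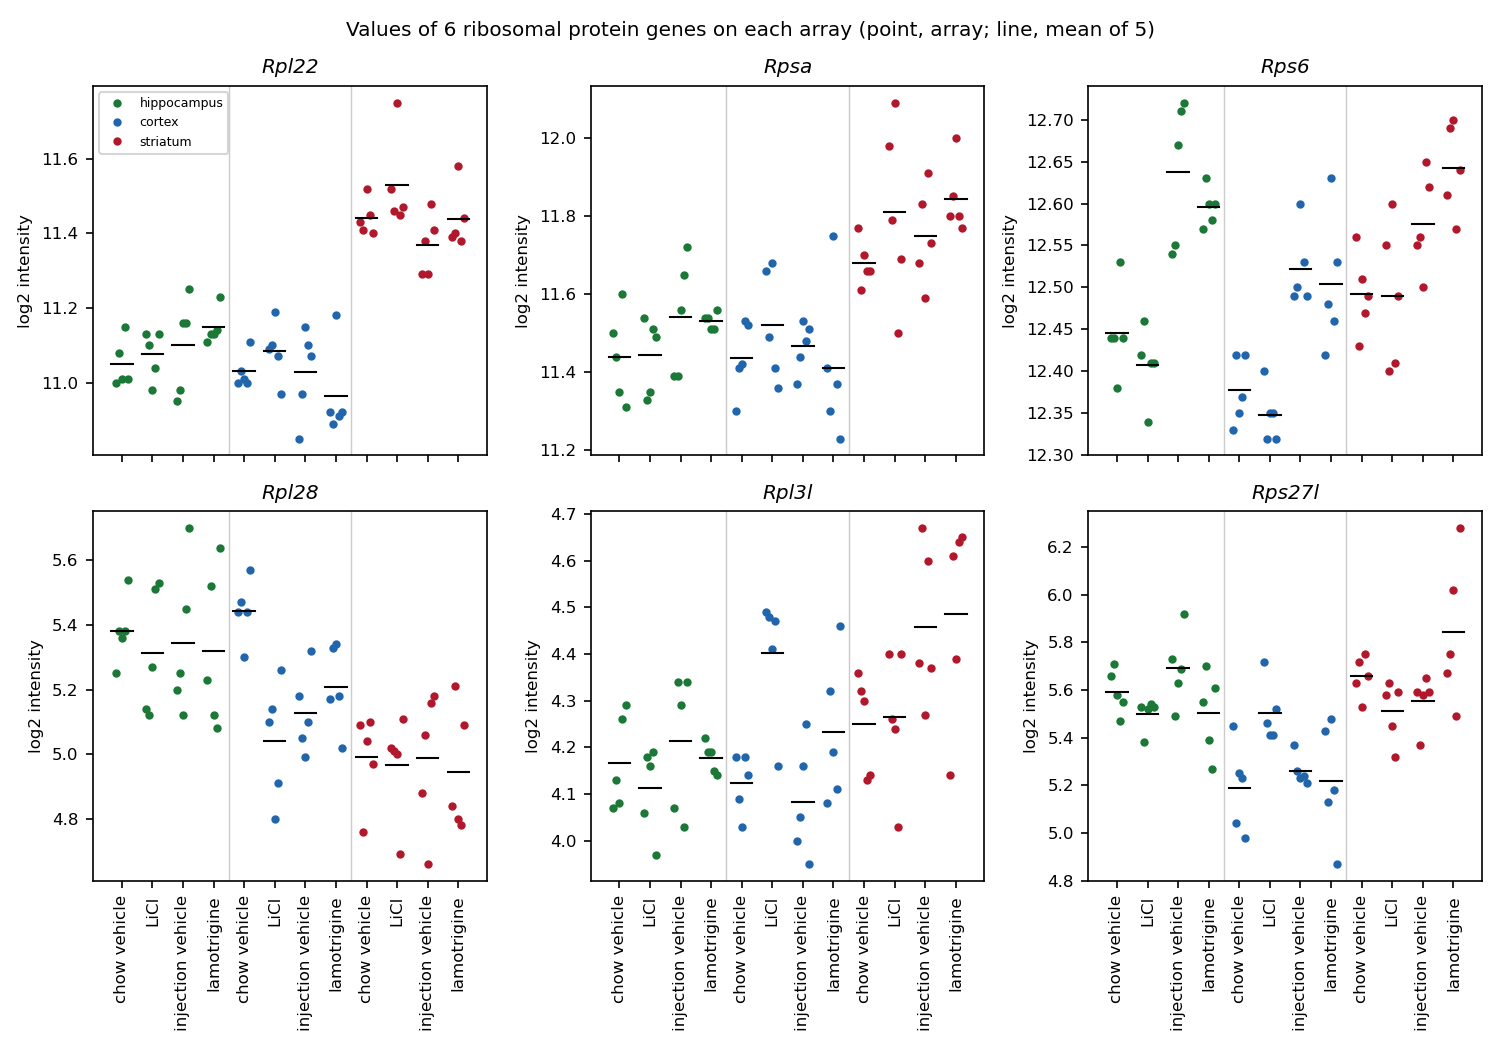
Log2 intensity (vertical axes, which do not start at 0) of Rpl22, Rpsa, Rps6, Rpl28, Rpl3l and Rps27l on each array of the 12 groups (horizontal axis); points are arrays and lines are means of 5. For Rpl22 all striatum arrays lie at 11.29 or above and all others at 11.25 or below; Rps6 is higher in the injection vehicle than in the chow vehicle groups of hippocampus and cortex.

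Other genes of protein synthesis were set beside the members. The lists overlap: Eif3f is in both the translation factors and the other TOP messages. The shares over all probe sets between striatum and cortex were 31.2% higher and 24.7% lower. Between striatum and cortex, translation factors were mostly lower where they were called: 8 of 34 measured were higher, among them Eif3m at 0.36 ± 0.03, and 14 lower, among them Eef1a2, the elongation factor of neurons and muscle, at -0.47 ± 0.03 (adjusted p = 6.65e-20). Of 17 measured messages known to carry a TOP motif besides the ribosomal proteins, 6 were higher, including Naca at 0.32 ± 0.03, and 4 lower. Ribosome biogenesis genes split into 23 higher and 16 lower of 60, and Fbl, the methyltransferase fibrillarin, was 0.65 ± 0.04 higher (adjusted p = 3.78e-19). The mitochondrial ribosome split into 27 higher and 14 lower of 73, and mTORC1 signalling genes into 12 higher and 12 lower of 34. Their medians were -0.0517, 0.0142, 0.029, 0.0327 and 0.0135, in the order given, beside 0.147 for the members. Of the 3 snoRNA host genes measured, Snhg4 (-0.64 ± 0.06) and Snhg11 (-0.48 ± 0.11) were lower and Gas5 (0.18 ± 0.06) was higher.

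Between hippocampus and cortex, 21 of 34 translation factors were higher and 3 lower, and 32 of 73 mitochondrial ribosomal protein genes were higher and 1 lower. The shares over all probe sets there were 21.3% higher and 21.1% lower. Between striatum and hippocampus, 1 translation factor was higher and 24 were lower, so that these genes and the 34 higher members ran in opposite directions there. The shares over all probe sets in that comparison were 27.4% higher and 23.5% lower.

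Between the vehicles in cortex, 39 of the 73 mitochondrial ribosomal protein genes were called lower after injections and 0 higher, with Mrpl36 at -0.59 ± 0.05 (adjusted p = 1.02e-07), and 15 of 60 biogenesis genes were lower and 0 higher, with Emg1, a methyltransferase of the small subunit, at -0.75 ± 0.12 (adjusted p = 0.000118). Of all probe sets, 18.9% were called in that comparison, higher and lower together. Under LiCl in cortex, 26 of the 73 mitochondrial and 15 of the 60 biogenesis genes were lower and 0 and 1 higher. Of all probe sets, 13.4% were called there in either direction, and bright genes as a whole were also called mostly lower, as given above. The translation factors gave 0 higher and 9 lower of 34, the other TOP messages 1 and 2 of 17, mTORC1 signalling 0 and 5 of 34 and the snoRNA hosts 0 and 1 of 3. These 2 comparisons share the chow vehicle arrays. In hippocampus 12 of 34 translation factors were higher after injections and 0 lower, with the release factor Etf1 at 0.40 ± 0.05 (adjusted p = 2.03e-05). Of all probe sets, 18.5% were called there in either direction. Under lamotrigine 0 genes of these 6 lists were called in any region.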

How the data were processed

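Rat hippocampus, cortex and striatum were dissected, and RNA was labelled as biotin cRNA and hybridized to Affymetrix arrays, 60 in all. The intensity values were deposited by the authors after RMA normalization, run in R 2.7.2 per the labels, on a linear scale (6.93 to 28582.45), and their log2 was taken with no pseudocount. No detection calls or scanner files were used here, so which dim probe sets exceed background is unknown, and the number of arrays limits the precision. Of 31099 probe sets, 57 controls were removed and 31042 were tested. Symbols came from the platform annotation: 20826 probe sets had 1 symbol, 436 several and 9780 none.

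Each region's 20 arrays were fitted with limma 3.58.1 (R 4.3.3) with an intensity trend, and p-values were adjusted by Benjamini-Hochberg over all 31042 probe sets, with calls at an adjusted p under 0.05. Regions and the interaction of drug and region were fitted over the 60 arrays with the animal as a random block (correlation 0.1328). The tests are two-sided; p-values measure the spread between arrays of a group. The fits were tested on simulated data. No arrays were identical. Alternatives covered quantile normalization, centring, the intensity trend, dim probe sets, array spread, 3′ to 5′ difference, arrays high in choroid plexus genes, the replicate block and leaving out each array; restricting the region comparisons to a drug's arrays, their covariates and the choroid plexus limit of 6.5 were chosen after seeing the data. Members, lists and the rule for named genes were chosen with earlier results of these data known. The rule named the called members with the largest changes (the 3 smallest p where fewer than 3 were called), the extremes of level, Rpsa, Rplp0, Rps6 and paralogs.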

Additional observations from a re-analysis of the deposited data

Results flagged for a closer look

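Across the 204 groups of 5 arrays examined, 21 held an array that lay far from the other 4 by Dixon's ratio, and chance gives about 1 group in 20. Cortex lamotrigine replicate 3 stood apart in the mean level of all members, at 11.07 against 10.89 to 10.92 on the other 4 arrays, and in Rplp0 (12.02 against 11.60 to 11.70), Rpl22 (11.18 against 10.89 to 10.92) and Rpl7 (12.40 against 12.16 to 12.20). Cortex chow vehicle replicate 5 was high in the mean level, at 11.02 against 10.91 to 10.94, and in Rplp0, at 12.04 against 11.75 to 11.81. Striatum lamotrigine replicate 3 was high in Rpl22 (11.58 against 11.38 to 11.44) and Rps29 (14.10 against 13.92 to 13.96).

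Rpl22 was also high on hippocampus lamotrigine replicate 5 (11.23 against 11.11 to 11.14) and on striatum LiCl replicate 3 (11.75 against 11.45 to 11.52). Rpl7 was low on hippocampus chow vehicle replicate 5 (12.36 against 12.46 to 12.49). Rps15 was high on hippocampus LiCl replicate 1 (11.86 against 11.71 to 11.75), and Rpl14 was high on striatum chow vehicle replicate 3 (11.36 against 11.24 to 11.26). Rpl7l1 was low on cortex LiCl replicate 3 (9.01 against 9.09 to 9.11) and high on striatum chow vehicle replicate 2 (9.41 against 9.28 to 9.32) and striatum LiCl replicate 5 (9.38 against 9.25 to 9.27).

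Among dim members, Rpl28 was low on striatum LiCl replicate 4 (4.69 against 5.00 to 5.11) and Rpl3l was low on cortex LiCl replicate 5 (4.16 against 4.41 to 4.49). Rps27l was low on hippocampus LiCl replicate 2 (5.38 against 5.52 to 5.54) and on striatum injection vehicle replicate 2 (5.37 against 5.58 to 5.65). Rps13 was low on cortex injection vehicle replicate 4 (5.03 against 5.33 to 5.44).

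The effect of LiCl differed between the 3 regions for Rps27l (limma interaction F test, adjusted p = 0.026) and Rps4y2 (adjusted p = 0.0346). Of all probe sets, 17.2% were called in that test. Both members are dim, and neither call held with quantile normalization.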

How the results depend on the processing

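Of 152 counts of called members under other settings, 127 stayed within 1.5 times the value given. So did 190 of 210 counts with an array left out. The 27 medians recomputed under other settings and the 90 with an array left out moved by less than the spread between replicates. This limit does not show that a median kept its sign. With an array left out, the median crossed 0 under LiCl in striatum (-0.0159 to 0.0319) and under lamotrigine in hippocampus (-0.0392 to 0.0211) and cortex (-0.0543 to 0.00029). It also crossed 0 between the vehicles in cortex (-0.0214 to 0.0305) and striatum (-0.0118 to 0.0444). Between the vehicles in hippocampus, 5 members were called; the count was 2 with quantile normalization, with centring or without arrays high in choroid plexus genes (either rule), 3 without the intensity trend, 0 with array spread as a covariate or at 1.2-fold, 9 with the 3′ to 5′ difference as a covariate, and 2 to 13 with an array left out. Under LiCl in cortex the 2 calls became 1 with quantile normalization and 0 with array spread as a covariate or without dim probe sets, and 1 to 3 with an array left out. Between the vehicles in cortex the 3 calls became 6 with array spread as a covariate, 1 at 1.2-fold and 2 to 3 with an array left out; in striatum 0 became 1 (Rpl7l1, lower) with centring, without dim probe sets or in 1 fit of all 60 arrays, and 0 to 1 with an array left out. Striatum against cortex gave 7 at 1.2-fold and 38 to 43 with an array left out. Hippocampus against cortex gave 9 with injection vehicle arrays alone, 7 with chow vehicle arrays alone, 1 at 1.2-fold and 12 to 18 with an array left out. Striatum against hippocampus gave 18 with injection vehicle arrays alone, 3 at 1.2-fold and 29 to 36 with an array left out. Of the 2 interaction calls, neither held with quantile normalization (Rps27l, adjusted p = 0.235; Rps4y2, 0.212), where 1 other member, Rpl28, was called (adjusted p = 0.0237); with no animal block 1 was called, Rps27l; and the count was 0 to 3 with an array left out. With a replicate block, 3 members were called between the vehicles in hippocampus, 4 in cortex and 3 under LiCl in cortex, and 0 in the other drug and vehicle comparisons; same-numbered arrays share only a number. The causes were not tested. The shares of all probe sets called at 1.2-fold or with an array left out are not given here.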
